A study of Drosophila melanogaster with 3 samples.

Results

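Peaks at non-coding RNA genes were examined in chromatin immunoprecipitation with sequencing (ChIP-seq) of the fruit fly nuclear receptor svp. The peaks came from the authors' IDR-thresholded list (irreproducible discovery rate), which was made from the replicate and pooled lists on the dm6 genome. A peak was included where its summit lay inside a gene of biotype ncRNA, or no farther than 500 bp from a start of transcription (TSS) of one, and more than 500 bp from every protein-coding TSS. The rule used position only, and 329 of the 5425 peaks on the chromosome arms met it. The other 5096 peaks serve as the comparison. Of the 329, RefSeq classed the gene as a long non-coding RNA (lncRNA) for 290 (88.1%, exact 95% interval 84.2 to 91.4%) and only as an antisense RNA for 31 (9.42%). The remaining 8 lay at microRNA and other small or structural RNA entries, so the label lncRNA holds for most of the peaks, and all 329 are called peaks at ncRNA genes here.

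All 3 libraries were biological replicates of 1 group. The animals came from a transgenic line that stably expresses svp with GFP at its C terminus. Chromatin of whole white prepupae, males and females pooled, was sonicated and precipitated with an antibody to GFP. The age of the animals is given as unknown beyond the stage, which marks the start of metamorphosis. No sample without GFP is used here, so binding by svp and chromatin taken up by any antibody cannot be told apart. In whole animals, strong binding in a few cells and weak binding in many cannot be told apart either.

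Seven-up (svp) is the fly member of the COUP-TF family of orphan nuclear receptors, transcription factors whose DNA-binding domain recognises the half-site AGGTCA. Genes for lncRNAs are transcribed but carry no long reading frame, and many lie inside the introns of protein-coding genes. Some are the primary transcripts from which microRNA hairpins are cut, so a site near their start may lie at the control region of a microRNA. Others are known for acting themselves, such as roX1 and roX2 in X chromosome dosage compensation and Hsromega in the omega speckles of the nucleus.

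The sequences under 6 chosen summits illustrate the sites. Each is the plus strand of the RefSeq release 6 sequence on dm6, from 50 bp left to 50 bp right of the summit, in lower case. Capitals mark the nuclear receptor half-site AGGTCA and the GATA factor site GATAA on either strand, so TGACCT and TTATC are the same sites read on the other strand. They were chosen to show some of the strongest peaks, some hosts of microRNAs and the lncRNA gene inside svp itself. The let7C summit has a signal of 306, so the 6 are not the strongest of the set.
CR46035 (chr3R:17704362-17704462): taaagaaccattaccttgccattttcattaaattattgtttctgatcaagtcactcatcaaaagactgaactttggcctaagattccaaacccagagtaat
CR31044 (chr3R:29214394-29214494): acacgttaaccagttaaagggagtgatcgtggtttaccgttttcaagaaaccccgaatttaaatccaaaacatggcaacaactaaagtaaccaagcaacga
CR44619 (chrX:12752309-12752409): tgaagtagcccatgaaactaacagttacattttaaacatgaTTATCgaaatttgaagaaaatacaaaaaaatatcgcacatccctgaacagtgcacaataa
CR43626 (chr3L:3248869-3248969): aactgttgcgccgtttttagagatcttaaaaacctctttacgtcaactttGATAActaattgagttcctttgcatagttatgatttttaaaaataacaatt
let7C (chr2L:18465450-18465550): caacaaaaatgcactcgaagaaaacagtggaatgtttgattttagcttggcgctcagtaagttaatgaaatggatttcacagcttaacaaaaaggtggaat
CR44039 (chr3R:12270025-12270125): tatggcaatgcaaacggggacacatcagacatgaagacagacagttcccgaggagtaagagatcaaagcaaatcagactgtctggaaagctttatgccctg

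None of those 6 windows held a half-site, and those of CR44619 and CR43626 each held 1 GATA site. The 7 windows that follow were chosen because each holds a half-site, and they run in order of peak signal. Another 2 with a half-site, at CR44292 and CR44634, are not printed.
CR45372 (chr2L:3475397-3475497): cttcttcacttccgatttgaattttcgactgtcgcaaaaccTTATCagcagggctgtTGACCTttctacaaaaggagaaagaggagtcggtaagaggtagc
marge (chr3L:14977889-14977989): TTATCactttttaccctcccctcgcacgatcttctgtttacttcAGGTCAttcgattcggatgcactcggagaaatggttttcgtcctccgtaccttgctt
asRNA:CR43683 (chr2L:9960942-9961042): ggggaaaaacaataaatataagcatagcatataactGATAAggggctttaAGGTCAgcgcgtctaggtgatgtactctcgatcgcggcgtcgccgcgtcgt
CR45425 (chr3L:2504185-2504285): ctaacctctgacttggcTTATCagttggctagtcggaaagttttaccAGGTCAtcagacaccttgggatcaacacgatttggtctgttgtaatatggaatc
CR44135 (chr3R:11978463-11978563): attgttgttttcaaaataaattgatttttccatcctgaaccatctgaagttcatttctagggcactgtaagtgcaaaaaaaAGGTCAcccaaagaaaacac
sisRNA:3 (chr3L:22269714-22269814): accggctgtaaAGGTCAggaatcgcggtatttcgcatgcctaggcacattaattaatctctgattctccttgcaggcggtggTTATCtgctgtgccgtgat
asRNA:CR45209 (chr3R:27110571-27110671): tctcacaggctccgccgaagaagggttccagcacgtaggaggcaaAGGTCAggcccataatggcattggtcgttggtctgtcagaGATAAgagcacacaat

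The data collected were peak lists, not reads. Each peak carries the authors' signal value, whose scaling is not stated, so sets of peaks were compared within 1 list only. Signals of the 3 replicates are given side by side on scales that may differ, with ranks where their order matters. Each replicate list held exactly 30000 peaks, and read depth is unknown. Support from a replicate means that one of its 5000 highest peaks held the summit. Intervals are exact binomial (Clopper-Pearson) and cover counting error over peaks only.

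Peaks at ncRNA genes covered nearly the whole range of strength in the list. Their signal values ran from 120 to 2427 with a median of 216, against a median of 218 for the other peaks. Cut into 4 equal groups by signal, the whole list held 75, 85, 82 and 87 of them from the highest group to the lowest, and 7 were among the 100 highest peaks. The median width was 456 bp for both sets.

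The highest peak of the set lay at CR46035 (3R 17704192 to 17704636, signal 2427), a gene of 1887 bp on the plus strand. Its summit was in an exon of CR46035, 717 bp from the start, and in an intron of osa on the opposite strand. The gene osa encodes a subunit of the Brahma chromatin remodelling complex. In the lists of replicates 1, 2 and 3 this peak had signals of 828, 848 and 764 and ranked 8, 11 and 6. It was thus among the strongest sites of each replicate.

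The second (3R 29214183 to 29214637, signal 2270) lay 118 bp upstream of CR31044, the host transcript of mir-279 and mir-996. The microRNA miR-279 is known for preventing the formation of ectopic carbon dioxide sensing neurons. The peak had signals of 733, 841 and 697 in replicates 1, 2 and 3, with ranks of 16, 12 and 11. The next 2 lay about a kilobase apart on X, at CR44619 (signal 1812) and at Vinr (signal 1704). Their replicate signals were 635, 643 and 549 at CR44619, and 585, 646 and 432 at Vinr. Both lay in exons, and the nearest protein-coding TSS was that of CG4004, 6042 and 5041 bp away. All 4 of these sites ranked within the first 62 peaks of every replicate.

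Of the next peaks, several lay in introns of protein-coding genes. CR43626 (signal 1212; 405, 420 and 388 in replicates 1, 2 and 3), the host of mir-282, had its summit 421 bp upstream of its start, in an exon of CG43389. CR45196 (signal 1193; 417, 455 and 324) lay in an intron of pum, a translational repressor, on the opposite strand. CR46102 (signal 1177; 433, 404 and 338) lay in an intron of LpR2, a lipophorin receptor gene, also on the opposite strand. CR45997 (signal 1068; 372, 375 and 314) lay in an intron of mbl, the splicing regulator muscleblind, on the same strand. CR44676 (signal 1077; 351, 370 and 337) lay outside any coding gene, 8395 bp from the TSS of CG9300.

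Some of the strong peaks stood highest in replicate 2. CR44039 (3R 12269846 to 12270272, signal 957) lies within an intron of svp on the same strand, and its summit was in an exon of CR44039. Its signals were 254, 478 and 220 in replicates 1, 2 and 3, with ranks of 257, 102 and 301. CR46445 (signal 981; 267, 441 and 282), CR45962 in Ten-m, a teneurin gene (signal 861; 245, 447 and 171), and CR44867 in beat-Ib, an axon guidance gene (signal 846; 239, 487 and 123), were also highest in replicate 2, by signal and by rank. At CR44867 the ranks were 304, 92 and 1021. The flies carry a tagged svp transgene, and it was not tested whether this adds a copy of the CR44039 region. The last of the 15 highest lay at CR46006 (signal 873; 253, 343 and 276) and at CR44999 (signal 821; 308, 265 and 255). All 15 of these peaks were supported by all 3 replicates.

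**Figure D1:**
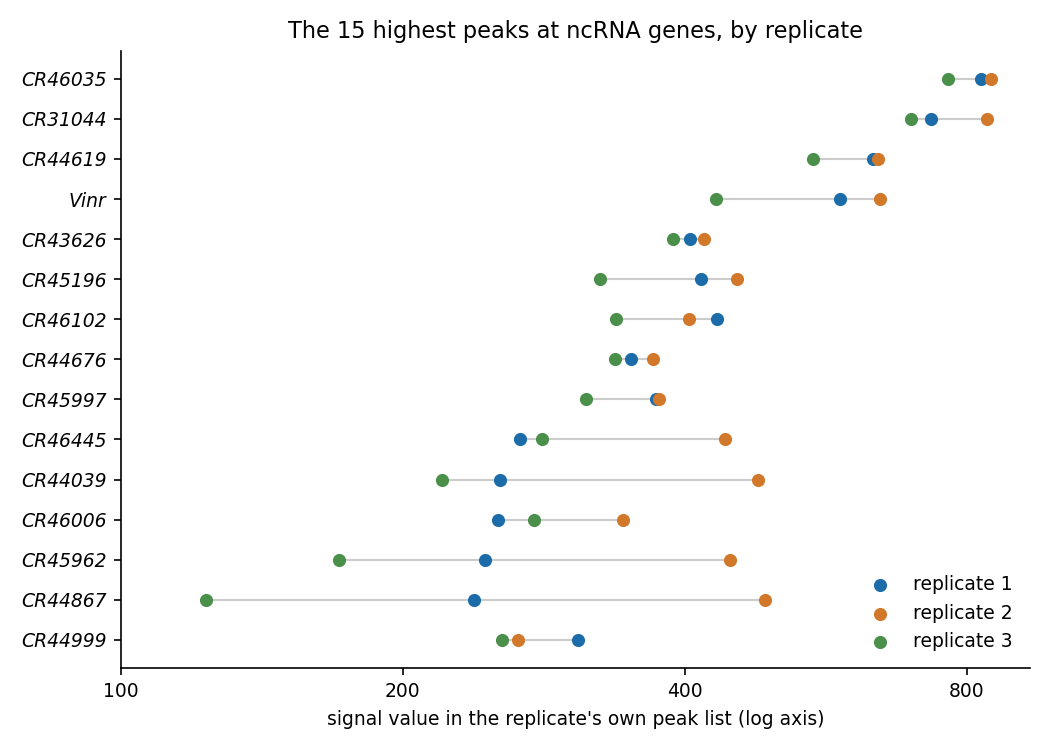
Signal values of the 15 highest peaks at ncRNA genes, 1 row per gene, with 1 point for each replicate (colours) on a log axis of the replicate's own peak list; no error bars, since each point is 1 library. The points of CR46035 lie at 828, 848 and 764, close together, and those of CR44867 at 239, 487 and 123, far apart.

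Support by the replicates did not differ between the sets beyond the spread of the replicates. Of the peaks at ncRNA genes, 200 of 329 (60.8%, 55.3 to 66.1%) were supported by all 3 replicates, where 56.7% of all 5425 peaks were. The shares supported were 87.2%, 77.8% and 76.9% in replicates 1, 2 and 3 for peaks at ncRNA genes. For the other peaks they were 79.4%, 78.0% and 79.9%. Peaks at ncRNA genes were ahead in replicate 1 by 7.88 percentage points and behind in replicates 2 and 3, with differences of -0.15 and -3.03 points. The mean share was 80.6% ± 5.72 for peaks at ncRNA genes and 79.1% ± 1.01 for the other peaks (SD, n = 3 replicates). The mean difference of 1.57 ± 5.65 points (SD, n = 3) gave p = 1 in a two-sided exact sign-flip permutation test, in which the smallest p possible is 0.25. Without replicate 1 the difference was -1.59 points, so its direction rests on that replicate.

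**Figure D2:**
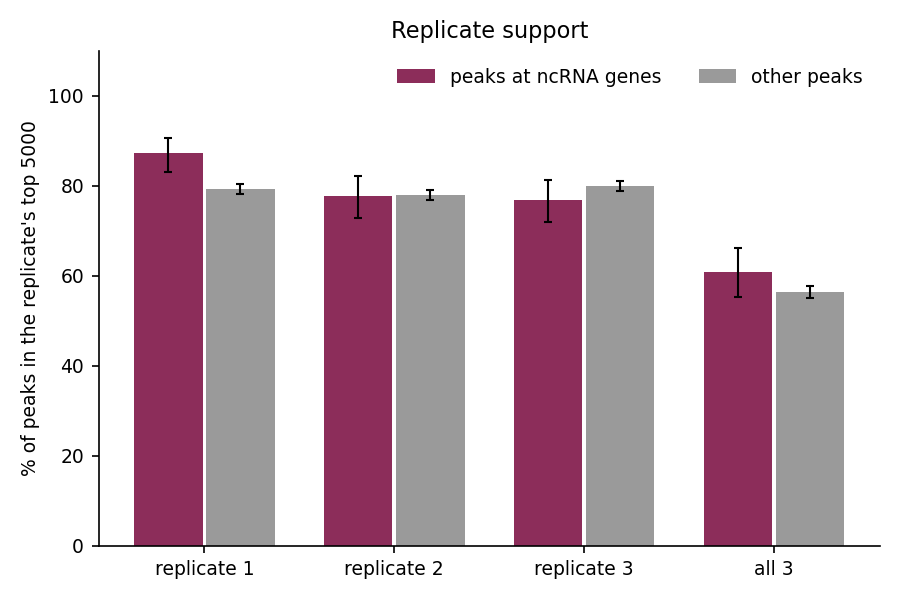
Share of peaks, in %, whose summit lay in the 5000 highest peaks of each replicate and of all 3, for peaks at ncRNA genes (left bar) and the other peaks (right bar); lines are exact 95% binomial intervals over peaks. In replicate 1 the bars stand at 87.2% and 79.4%, and in replicate 2 at 77.8% and 78.0%.

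Peaks supported by the top list of replicate 1 alone numbered 32 of 329 (9.73%), against 6.56% of all peaks. Those in the top lists of replicates 2 and 3 but not in that of replicate 1 numbered 20 (6.08%), against 9.86% of all peaks. Only 8 (2.43%) were supported by no replicate, against 2.30% of all peaks. No peak at all in the whole lists of replicates 1, 2 and 3 held 18, 2 and 6 of the 329 summits. The other summits without support lay in a peak ranked below the 5000 highest. A peak of any rank held 311, 327 and 323 of the 329 summits, against 4883, 5381 and 5335 of all 5425. Support is itself set by signal rank, so it goes with strength by construction. The peaks at ncRNA genes supported by all 3 replicates had a median signal of 292 and those supported by none 125. Over all peaks these medians were 306 and 126. Applied to the 5000 highest peaks of each replicate alone, the same rule gave 313, 288 and 281 peaks (294 ± 16.8, SD, n = 3). These were 5.90% ± 0.323 of the top peaks (SD, n = 3). A few summits share evidence, as 20 of the 329 lay in a replicate peak that also held another of them.

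Summits lay both at the starts of ncRNA genes and well inside them. Of the 329, 169 (51.4%, 45.8 to 56.9%) were within 500 bp of an ncRNA TSS, 75 of them inside the gene and 94 outside it. The other 160 (48.6%) lay inside the gene and farther from its start. Of the 235 summits inside a gene, 126 (53.6%) were in an exon. The median distance to the nearest ncRNA TSS was 492 bp, with a range of 1 to 112492 bp. The rule itself holds the summits outside a gene to within 500 bp of a start.

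A protein-coding gene also held 147 of the 329 summits (44.7%, 39.2 to 50.2%), against 69.9% of the other peaks. Introns held 134 of these, coding sequence 8 and other exons 5. The ncRNA gene ran opposite to the coding gene at 88 summits, in the same direction at 55, and both ways at 4. The rule bears on this share, since it leaves out the surroundings of every coding TSS. Summits inside a coding gene had a median signal of 235, and those outside one 205.

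At the limits of the rule, the peaks just inside and just outside had signals of 122 to 483. CR42868 lay just inside the limit at 535 bp from the TSS of CG42867 (signal 122), and enrr at 552 bp from that of elav, a neuronal RNA-binding protein gene (signal 236). A summit at CR45018, 499 bp from the TSS of IP3K2 (signal 191), and one 496 bp from that of PIG-K (signal 149) were just outside. At the limit for an ncRNA TSS, CR44588 at 500 bp (signal 483) and CR43650 at 495 bp (signal 266) counted as near it. CR44306 at 502 bp (signal 184) and sncRNA:204 at 512 bp (signal 172) did not. In all, 118 of 447 summits at ncRNA genes (26.4%, 22.4 to 30.7%) were left out as too near a coding TSS. Closeness to a coding TSS was common in the whole list. Over all 5425 summits, the distance to the nearest one had a lower quartile of 298 bp and a median of 1412 bp.

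The peaks fell on 255 of 3289 ncRNA gene entries of the arms (7.75%). Among lncRNA genes, 201 of 1987 (10.1%) had a peak, with 156 at 1 summit, 27 at 2 and 18 at 3 or more. Antisense RNA genes had a peak in 29 of 503 cases (5.77%). Longer lncRNA genes more often had a peak, with 7.60% of those up to 500 bp and 44.0% of the 25 longer than 20 kb. With groups split at 500, 1000, 2000, 5000 and 20000 bp, summits inside the gene per 10 kb were 0.754, 0.569, 0.862, 0.549, 0.632 and 0.349. They did not fall steadily with length. This density leaves out summits outside the gene near its start, which the share with a peak counts. It is taken over the whole gene, including any sequence within 500 bp of a coding TSS, where no summit could count. How far that lowers it in each group was not worked out. A longer gene thus more often had a peak, and the density of summits was lowest in the longest group.

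The X chromosome carried 91 of the 329 peaks (27.7%, 22.9 to 32.8%), against 18.3% of the other peaks. X also held 31.7% of the 5.68 Mb in which a summit could meet the rule, so the density there was 0.505 per 10 kb of such sequence, against 0.579 over all arms. Chromosome arm 2L had 70 peaks (0.712 per 10 kb), 3L had 51 (0.508) and 3R had 61 (0.535). Arm 2R had 56 (0.852), the highest density of the arms, and chromosomes 4 and Y had 0. X thus held the most peaks of any arm but the lowest density of the arms with a peak, close to that of 3L. Over the whole list X held 0.434 summits per 10 kb of the arm, against 0.404 on the large autosomal arms. The replicates alike put more than their usual share on X, with 29.1%, 25.3% and 27.4% of the top peaks at ncRNA genes in replicates 1, 2 and 3, against 20.2%, 16.7% and 17.3% of all top peaks. A total of 47 of the 91 X peaks lay at the 5 X genes with 5 or more summits each. Without those genes the X share was 15.6%, and X held 0.396 peaks per 10 kb of the remaining 1.11 Mb. These genes were picked by their number of summits and autosomal genes with as many were kept, so the share had to fall.

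The gene with the most summits was CR44357 (X, 239347 bp, minus strand), with 16. Their signals ran from 157 to 706 with a median of 240, and 10 were supported by all 3 replicates. They formed groups within it rather than an even spread. A run of 9 had its nearest coding TSS at brk, a repressor of Dpp target genes, or at unc-119, among them 479 (126, 238 and 112 in replicates 1, 2 and 3) and 395 (170, 116 and 114). The highest, 706 (223, 270 and 201), lay 795 bp from a TSS of Dok, an adaptor protein gene. All 16 summits were inside introns of other genes, CG1677, Cph, Atg5 or Dok.

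CR44999 (X, 149629 bp, plus strand) had 10 summits, of which 9 were supported by all 3 replicates. The first 2, at 8016 and 8750 bp from its start, lay in an intron of Myc, a growth-regulating transcription factor gene whose TSS lies at the start of CR44999. Their signals were 245 (85.9, 85.9 and 75.9) and 527 (198, 167 and 162) in replicates 1, 2 and 3. The other summits were spread over the body, 7 of them in an intron of CG12535 on the opposite strand, with the highest at 821. The last, 247 (83.2, 97.5 and 62.2), was outside any coding gene.

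CR44833 (X, 107223 bp, minus strand) had 9 summits, 6 of them supported by all 3 replicates, with signals of 124 to 420. Of these, 8 had ovo as the nearest coding TSS, a zinc finger gene that acts in epidermis and germline, and lay 1574 to 22796 bp from it. The highest, 420 (143, 172 and 104 in replicates 1, 2 and 3), was the closest to it. CR32773 (X, 223710 bp) had 7 summits of 120 to 281, 4 of them in an intron of bi, the T-box gene optomotor-blind, on the opposite strand. CR45668 had 5, all supported by all 3 replicates, with 733 and 724 the highest, and for 4 of them the nearest coding TSS was that of Act5C, a cytoplasmic actin gene. CR45962 had 4 in an intron of Ten-m, each with a GATA site.

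**Figure D3:**
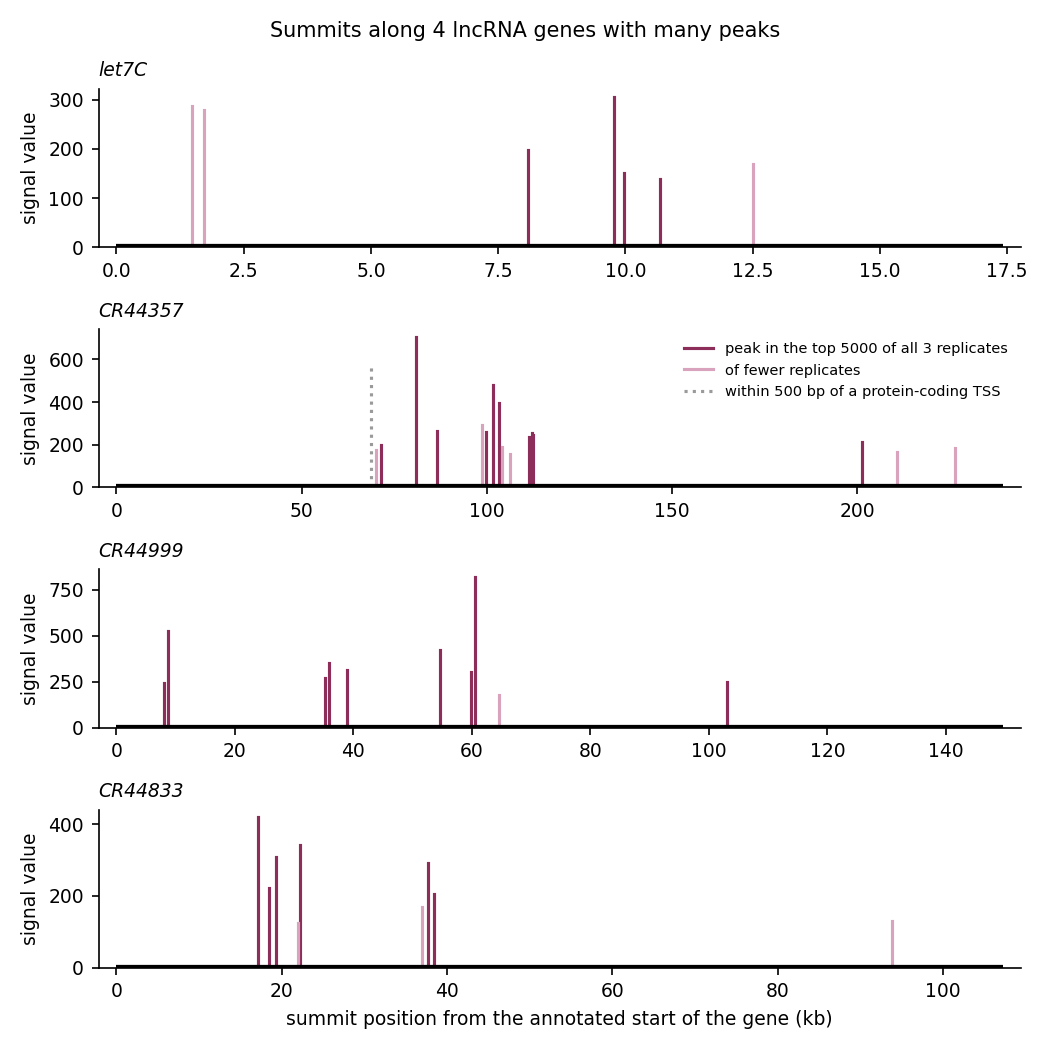
Summits along 4 lncRNA genes with many peaks (let7C, CR44357, CR44999 and CR44833), with the distance from the annotated start of the gene in kb on the x axis and the signal value on the y axis; dark lines are peaks supported by all 3 replicates, pale lines those supported by fewer, and dotted lines are summits within 500 bp of a protein-coding TSS. CR44357 shows a block of summits from 98664 to 112492 bp from its start, and let7C shows its 7 between 1492 and 12511 bp.

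Genes for lncRNAs that hold a microRNA hairpin on their own strand had peaks more often than other lncRNA genes in each length group, with wide intervals. This grouping was chosen after the values were seen and gets no test. Of the 34 such genes, 15 (44.1%, 27.2 to 62.1%) had a peak, against 186 of 1953 other lncRNA genes (9.52%, 8.26 to 10.9%). Among genes of 5 to 20 kb, 9 of 15 hosts (60.0%, 32.3 to 83.7%) had a peak, against 10 of 46 others (21.7%, 10.9 to 36.4%). Among those up to 5 kb, 2 of 14 hosts and 169 of 1887 others had one. Above 20 kb it was 4 of 5 hosts and 7 of 20 others. The intervals overlapped in each of these length groups.

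**Figure D4:**
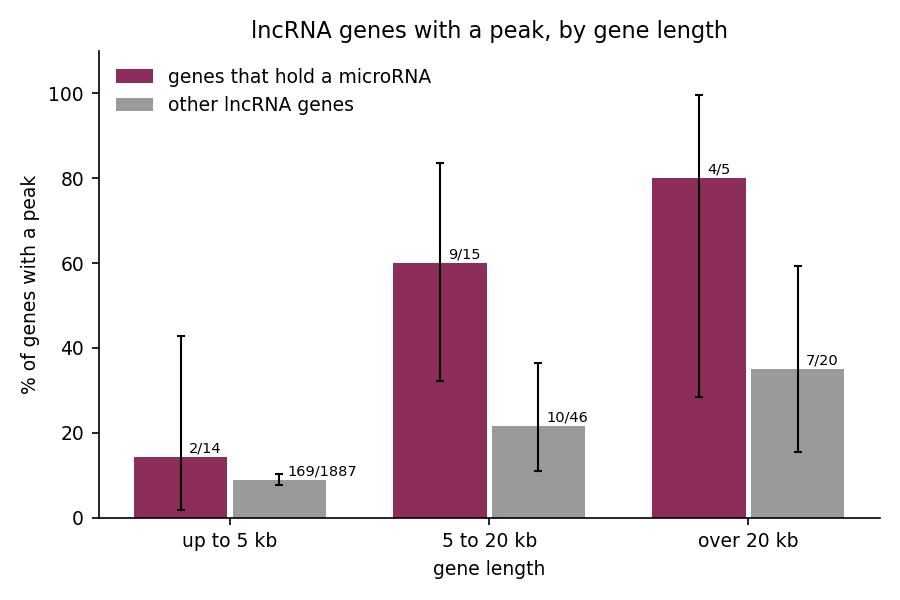
Share of lncRNA genes with at least 1 peak, in %, by gene length, for genes that hold a microRNA hairpin (left bar) and other lncRNA genes (right bar); lines are exact 95% binomial intervals over genes. At 5 to 20 kb the bars stand at 60.0% and 21.7%, and the intervals overlap.

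The host with the most summits was let7C (2L 18455717 to 18473132, plus strand), the transcript of mir-100, let-7 and mir-125. These microRNAs, let-7 above all, are known for timing the larval to adult transition. Its 7 summits lay 1492 to 12511 bp from its start, all upstream of the mir-100 hairpin, with signals of 139 to 306, and 4 were supported by all 3 replicates. The highest, 306, had signals of 103, 113 and 78.5 in replicates 1, 2 and 3, and a second summit (150) lay in the same replicate peaks. The first along the gene, 287 at 1492 bp, was in a peak of replicate 1 only (73.9). The next along, 278 at 1725 bp, had an overlapping interval and lay in a peak of all 3 replicates. Its signals were 33.0, 155 and 75.1 in replicates 1, 2 and 3, with ranks of 5905, 1428 and 2294. Replicates thus differed at that end of the gene in which summits they held and how strongly, and shared its highest peak.

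CR46006, the host of mir-276a (3L, 43950 bp), had 5 summits, the highest 873 and all of the others 384 or less. CR43334, the host of bantam, a microRNA that promotes growth and blocks cell death, had 2, of 599 (205, 237 and 145) and 250 (110, 84.1 and 54.1) in replicates 1, 2 and 3. Both lay upstream of the hairpin, the higher by 1421 bp. CR43857, the host of mir-275, had 3 with the highest at 462 (160, 164 and 131). CR43650, the host of mir-8, a microRNA that supports growth in the fat body, had 2, the higher 401 (136, 140 and 117), at 865 bp upstream of the hairpin. CR44206 (mir-184) had 4, iab8, CR43314 (mir-bft) and CR43836 (mir-31b) had 3 each, CR31044, CR43626, Hsromega (mir-4951) and CR42651 (mir-10) had 2 each, and CR46004 (mir-276b) and CR43651 (mir-14) had 1 each.

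Of the 42 summits at hosts, 38 lay upstream of the first hairpin and 3 of these within 1000 bp of it. Only 7 of the 42 were within 500 bp of the most upstream start of the host. The share of host sequence upstream of the first hairpin was not worked out. No preference for a side of the hairpin is therefore read from these counts. A half-site occurred at 0 and a GATA site at 12 of the 42, against 5.35% and 31.1% of all peaks, and nothing is read from counts this small. Of 260 annotated hairpins, 7 had a summit at or within 500 bp of their own start. The 19 hosts without a peak include those of mir-1, mir-124, mir-9a and of mir-277 and mir-34.

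Of a list of 32 names of described ncRNAs, 25 genes were found in the annotation and 3 had a peak, Hsromega, iab8 and let7C. Another 7 names matched no gene symbol: bft, pgc, 7SK, Uhg6, sr1, sok and rhea:AS. A gene listed under another symbol would be missed in this way, and CR43314, the host of mir-bft, had 3 summits. Hsromega, a stress-induced nuclear RNA, had summits of 508 (178, 176 and 155 in replicates 1, 2 and 3) and 134 (29.0, 48.9 and 35.6). The stronger one was 220 bp downstream of its start and supported by all 3 replicates, the weaker by none. The gene iab8, which lies in the bithorax complex of Hox genes, had 3 of 134 to 201, none supported by all 3 replicates. At iab8 the ranks were 6599, 3450 and 6337 in replicate 1, and 2647, 5604 and 4846 in replicate 2. In replicate 3 they were 2364, 4071 and 4730, and each of the 3 summits was supported by 2 replicates.

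The remaining 22 genes had no peak by the rule. Uhg8, a snoRNA host gene, had 1 summit (156) that lay near a coding TSS. The genes bxd, iab4 and yar had peaks in every replicate list but none in the IDR list, and the best ranks at bxd were 6793, 6737 and 5645. roX1 had a peak in replicates 1 and 3 only, at ranks 23707 and 27246, and roX2 had none in any. flam, a piRNA cluster transcript, had 0, 3 and 3 peaks in replicates 1, 2 and 3. In all, 11 genes had no peak in any replicate list, among them noe, mimi, sphinx, both 7SL genes and RNaseP:RNA. A gene without a listed peak was not detected in these lists, and the read depth behind them is unknown.

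For 6 peaks, a coding gene that held the summit or had the nearest TSS was EcR, Hr3 or a gene with an ecdysone-induced protein (Eip) name. EcR is the ecdysone receptor gene and Hr3 a nuclear receptor gene. These peaks were picked by name after the values were seen, so their number says nothing about ecdysone response as a whole. CR46322, in introns of Hr3, CG12912 and CG46321, had a signal of 407 (137, 184 and 89.9 in replicates 1, 2 and 3). CR45921, in an intron of the nuclear receptor gene Eip75B, had 219 (53.0, 119 and 33.9). CR45393, which lies between genes at 14214 bp from the TSS of Eip75B, had 367 (93.1, 177 and 99.4). These differed in support, as CR46322 and CR45393 were supported by all 3 replicates and CR45921 by 2. CR45820, in an intron of the kinase gene Eip63E, had 245 (75.1, 110 and 66.6) and was also supported by all 3. CR43904, in an intron of EcR, had 169, and asRNA:Eig63F-2, in an intron of Eip63F-1, had 125. Both had no peak in the list of replicate 1, with 96.9 and 34.9 at CR43904 and 84.3 and 16.7 at asRNA:Eig63F-2 in replicates 2 and 3.

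The nuclear receptor half-site was rare at the summits. AGGTCA, on either strand, lay within 50 bp of the summit at 9 of 329 peaks at ncRNA genes (2.74%, 1.26 to 5.13%), against 5.35% of all 5425 peaks. In windows 500 bp to the left and right of the same summits it occurred in 2.74% and 3.04%, against 2.62% and 2.75% for all peaks. The share at these summits was not above that of their surroundings, and the gap to all peaks was not tested. Among peaks supported by both remaining replicates, the share was 1.75% (4 of 229) without replicate 2, the largest move when 1 replicate was left out. The half-site reversed and not complemented (ACTGGA), the control, stood at 2.74% of peaks at ncRNA genes and 3.45% of all peaks. A pair of half-sites 1 bp apart, in the same direction or facing each other, exact or with 1 mismatch, occurred at 0 of the 329, for which the exact interval reaches 1.11%. Over all peaks, the direct pair occurred at 0.0184% exactly and at 0.0922% with 1 mismatch, and the facing pair at 0% and 0.0369%. The half-site preceded by TCA also occurred at 0 of the 329, against 0.0922% of all peaks. At shares this low, 0 of 329 does not set these peaks apart from the list, and each of these longer motifs holds the half-site or a near copy of it.

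The GATA site GATAA, on either strand, bound by GATA factors such as srp and pnr, occurred at 108 of 329 summits (32.8%, 27.8 to 38.2%), against 31.1% of all peaks. Its share 500 bp to the left and right was 17.6% and 15.5%, against 18.6% on each side for all peaks. Of the peaks at ncRNA genes, summits inside a protein-coding gene held it in 59 of 147 cases (40.1%), and those outside in 49 of 182 (26.9%). The same split was not worked out for all peaks, so this gap is not read as particular to peaks at ncRNA genes. The GAGA site (GAGAG, either strand) occurred at 14.3% of peaks at ncRNA genes and 14.0% of all peaks. The AP-1 site (TGANTCA) occurred at 2.13% of peaks at ncRNA genes and 2.41% of all peaks, and the E-box (CACGTG) at 1.52% of peaks at ncRNA genes and 0.848% of all peaks. The DRE occurred at 0 of the 329 and at 0.406% of all peaks. The windows had a median GC content of 36.6% at the summit and 43.6% beside it, and the part of base composition in these shares was not tested. A match is a description of the letters and not of binding.

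**Figure D5:**
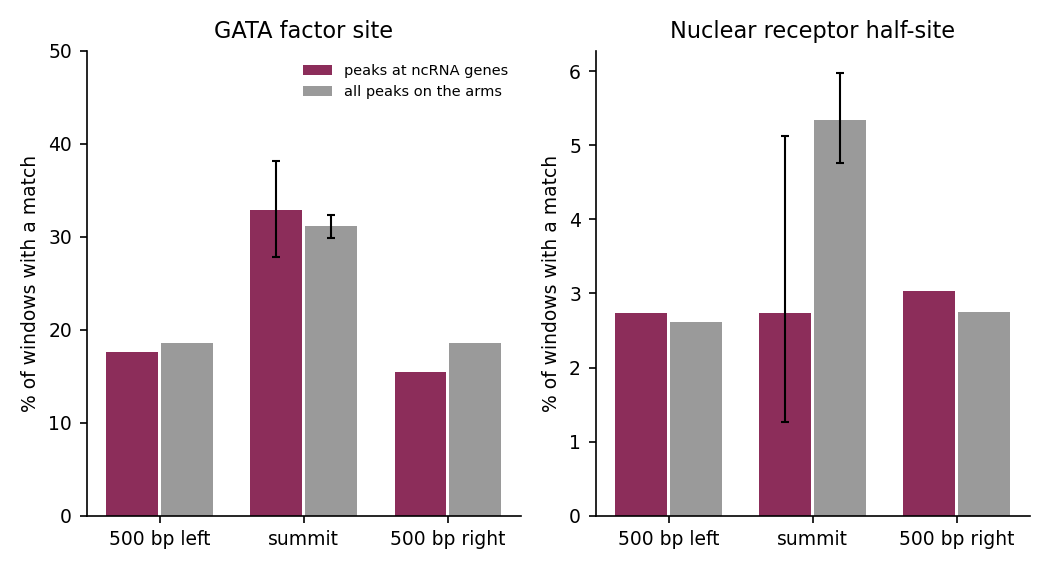
Share of windows of 101 bp with a match, in %, for the GATA factor site and the nuclear receptor half-site, at the summit and 500 bp to its left and right, in peaks at ncRNA genes (left bar) and all peaks (right bar); lines at the summit are exact 95% binomial intervals over peaks. The GATA bars stand at 32.8% and 31.1% at the summit, and the half-site bars at 2.74% and 5.35%.

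The 9 summits with a half-site had signals of 141 to 647, and 8 of them were near an ncRNA TSS. Support by all 3 replicates was found for 4 of the 9. A GATA site also lay within the window at 8 of the 9, against 104 of 290 (35.9%) of all half-site summits. Nothing is read from counts this small. The strongest, CR45372 (signal 647), had no peak in the list of replicate 1 and signals of 358 and 183 in replicates 2 and 3. The others of higher signal were CR44292 (478; 150, 228 and 99.7) and CR44634 (281; 110, 90.4 and 75.1). marge (249; 61.6, 103 and 74.0) and CR43683 (244; 65.3, 141 and 40.6), an antisense RNA gene in CG5850, were supported by all 3 replicates. The half-site lay 1 to 37 bp from the summit, at 3 bp at CR45209 (141), an antisense gene in gb, and at 1 bp at CR45425 (171).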

How the data were processed

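The study measured anti-GFP ChIP-seq in 3 biological replicates of 1 group, with replicate numbers from the labels. Per the deposited manifests, each replicate's peak list was made from its alignments and 1 control file, a pooled list from all replicates, and the IDR-thresholded list from those lists. Neither the aligner nor the peak caller is given in the sources used here. The signal value and the −log10 q-value of each peak are as the authors deposited them, and the second was not used for any result. The dm3 lists were not used.

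Summits (start plus offset) were placed on dm6 with the Ensembl 115 annotation (FlyBase 6.54) and RefSeq release 6 sequence, after checking that 0 peaks passed the end of an arm. Of 5443 peaks, 18 lay off the arms and were left out. Each summit is counted, also where an interval holds several. The biotype ncRNA was taken from the annotation, and RefSeq classes served to describe its members. Motifs were searched in windows of 50 bp to each side of the summit, on both strands, and in windows centred 500 bp to each side. Shares have exact 95% Clopper-Pearson intervals. The single test was a two-sided exact sign-flip permutation test over replicates. Python 3.11.15, numpy 2.4.6, scipy 1.17.1 and matplotlib 3.10.9 were used, and the steps were tested on simulated data.

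Named are the genes of the 15 highest peaks, the 8 genes with the most summits, a list of described ncRNAs and of names holding let7C or mir, the peaks nearest to each limit and the coding gene at each. The members, lists and rules were chosen with earlier results of these data known. The grouping of microRNA hosts, the ecdysone-related genes and the half-site peaks named were chosen after their values were seen. Alternatives changed the TSS limit, the top list, the overlap, the window, the strength of peaks, the replicates and the gene class.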

Additional observations from a re-analysis of the deposited data

How the results depend on the processing

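Of 91 values recomputed under alternatives, 21 passed the limit set for their kind, 2 changed direction and 68 did neither. The limit was the 95% interval for a share or a median, and a factor of 1.5 for a count, so counts below it could still move a good deal. The 2 that changed direction were the difference in replicate support between peaks at ncRNA genes and the other peaks. It was -0.855 points with the 2500 highest peaks of each replicate and ran from -1.59 to 3.86 points when leaving out 1 replicate. With the stronger 50% of peaks, there were 160 peaks at ncRNA genes at 133 genes, 92.5% supported by all 3 replicates, with a median signal of 345 and 51.2% inside a protein-coding gene. Peaks near an ncRNA TSS alone numbered 169, all of which (100%) lie within 500 bp by definition. Support by all replicates was 89.7% with the 10000 highest peaks, 29.5% with the 2500 highest, 44.4% with 50% reciprocal overlap and 66.9 to 69.6% without 1 replicate. The number of peaks supported by every remaining replicate was then 220 to 229 at 176 to 181 genes, and their median signal 270.0 to 284. The share near an ncRNA TSS was 28.6% at a limit of 200 bp and 67.2% at 1000 bp. The half-site share was 5.47% with 100 bp to each side and 1.75 to 3.10% without 1 replicate, and the GATA share 49.2% with 100 bp and 17.6% with 25 bp. Restricting the genes to RefSeq lncRNAs, or to lncRNAs and antisense RNAs, was chosen after seeing the data. With RefSeq lncRNAs alone there were 290 peaks at 201 genes, and no share or median left its interval. Values of both sets of peaks were paired within each replicate in the test, and no pairing between groups exists, since the labels name 1 group. Read depth is unknown, no control sample is compared here beyond the control file that entered the authors' peak calling, and the rank limit decides which peaks count as supported.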
